A study of Mus musculus with 6 samples.

Results

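The matrix metalloproteinases (MMPs) Mmp2, Mmp3, Mmp9, Mmp10, Mmp11, Mmp13 and Mmp14 and the tissue inhibitors of metalloproteinases (TIMPs) Timp1, Timp2 and Timp3 were followed in arrays of sorted mouse mammary cells. They are named genes, chosen as the proteases and inhibitors of extracellular matrix turnover, and a probe was taken as a member when its accession belongs to one of them. The 10 genes carried 12 probes, of 20656 genes matched by accession and 55681 non-control probes on the array. The study compared 3 samples of E18.5 fetal cells with 3 samples of adult basal cells, all from C57Bl6J females, with no treatment, culture or altered gene given in the labels, and asked how the transcripts of primitive fetal cells differ from those of their adult counterparts. Fetal cells were sorted as CD31-CD45-Ter119-EpCAM++CD49f+ at E18.5, and adult basal cells, from mice of 8 to 12 weeks, were CD31-CD45-Ter119-BP-1-EpCAM+CD49f+. BP-1, an antigen used to remove stromal cells, was gated out of the adult samples alone, and the adult glands were digested with collagenase and hyaluronidase for longer than the fetal glands, so that stage, gate and digestion cannot be told apart. RNA of each sample was hybridized to its own single-color Agilent array.

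MMPs are zinc-dependent endopeptidases that are made with an inhibitory prodomain and cleave collagens, laminins, proteoglycans and other matrix or cell surface proteins once that domain is removed. TIMPs bind the active site and block it. In the mammary gland these enzymes are known for their part in duct branching and in the remodeling that follows weaning, and stromelysins for cleavage of the basement membrane that basal cells rest on. Mmp3 and Mmp10 are stromelysins, Mmp13 a collagenase, Mmp2 and Mmp9 gelatinases, Mmp11 a furin-cleaved enzyme, and Mmp14 a membrane-bound enzyme that, together with Timp2, activates the Mmp2 proenzyme.

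Mmp3, Mmp10 and Mmp13 lie in a row of 10 protein-coding MMP genes on chromosome 9, in the order Mmp13, Mmp12, Mmp1b, Mmp3, Mmp1a, Mmp10, Mmp8, Mmp27, Mmp20 and Mmp7. Their promoters are shown because the 3 genes share the same letters before the transcript start and yet read differently on the arrays. The 120 bases before each start, from RefSeq on GRCm38.p6, are in lower case, with TGANTCA (the AP-1 motif, bound by Fos and Jun proteins) and TATAAA (the TATA box) in capitals, 5′ to 3′.
Mmp3, chr9:7445702-7445821, + strand: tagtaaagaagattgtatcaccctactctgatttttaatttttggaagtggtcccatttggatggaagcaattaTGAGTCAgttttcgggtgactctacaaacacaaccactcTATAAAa
Mmp10, chr9:7502222-7502341, + strand: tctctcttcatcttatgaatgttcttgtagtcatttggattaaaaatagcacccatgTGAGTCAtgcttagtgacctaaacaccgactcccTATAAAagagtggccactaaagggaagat
Mmp13, chr9:7272394-7272513, + strand: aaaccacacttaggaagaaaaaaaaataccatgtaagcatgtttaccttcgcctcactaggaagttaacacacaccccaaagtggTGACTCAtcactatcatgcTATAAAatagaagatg
The first base of the AP-1 match lay at -46 in Mmp3, -63 in Mmp10 and -35 in Mmp13, and that of the TATA match at -7, -29 and -16, counted from the annotated start. Promoter windows of 300 bases, running to 50 bases after the start, were given for 8 of the 10 genes and searched on both strands for the AP-1 letters, the TATA letters and AGGAAG (an ETS/PEA3 motif), none of which contains another. TGANTCA was found in 3 of the 8 genes and in 7.81% of 32851 windows of the same length, TATAAA in the same 3 genes and in 13.6% of windows, and AGGAAG in Mmp3, Mmp13, Mmp14, Timp1 and Timp3 and in 35.4% of windows. Over these genes and the rest of the family, 22 genes had a window, and the 8 with TGANTCA were Mmp13, Mmp12, Mmp1b, Mmp3, Mmp1a, Mmp10, Mmp20 and Mmp7, all of the chromosome 9 row. A match says that the letters are present, not that a factor binds there.

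**Figure D1:**
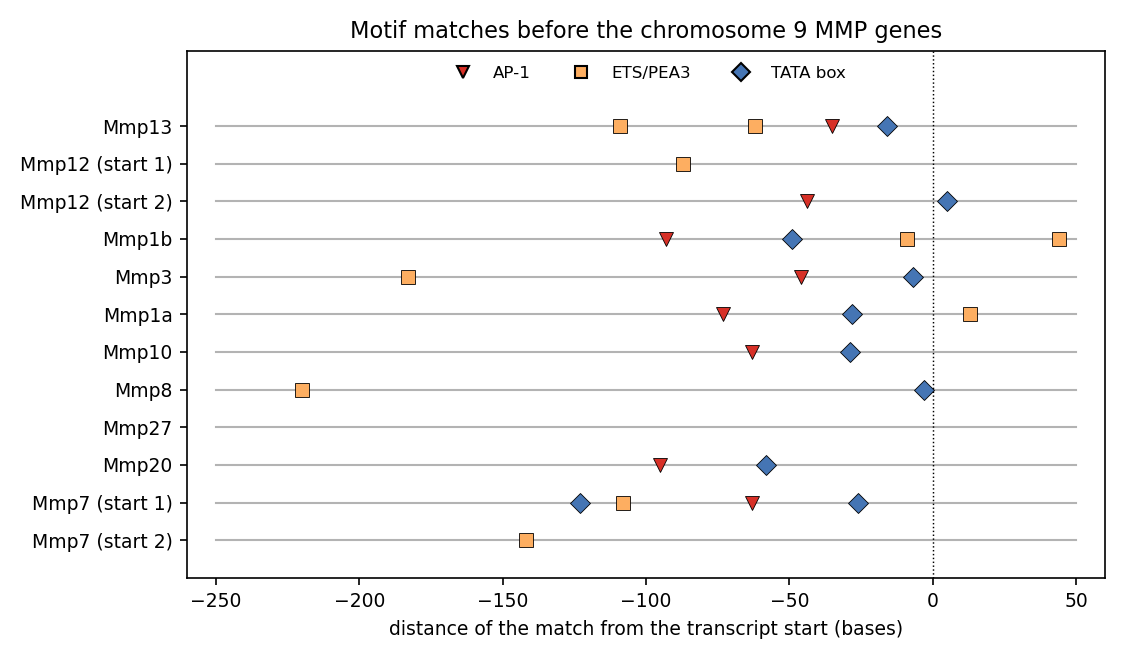
Positions of motif matches in RefSeq promoter windows of the chromosome 9 MMP genes, in gene order from top to bottom. The horizontal axis is the distance in bases of the first base of a match from the annotated transcript start (dotted line), gray lines are the windows, triangles are AP-1, squares ETS/PEA3 and diamonds TATA box matches. The AP-1 match lies at -46 in Mmp3, -63 in Mmp10 and -35 in Mmp13.

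Values below are log2 processed signals after quantile normalization of the 6 arrays, given in the order of replicates 1, 2 and 3, and a fold change is fetal over adult. Levels are compared between populations for the same probe, not between genes. For marker lists the summed signal is also given, with the probe that gave most of it, which ranks signals and not transcript levels. Probes whose mean was under the low-signal boundary of 5.95 in both populations were not tested, which left 20442 tested probes. A probe under that boundary in 1 population alone was tested only through the population in which it was higher. Counts and medians of the lists below include such probes and are given as description only. A call required a limma p that was at most 0.05 after Holm adjustment and a change of 2-fold or more (1 on the log2 scale). Of all tested probes 2269 were called, or 11.1%, with 5.92% higher in fetal and 5.18% higher in adult basal cells. Of the 10 MMP and TIMP genes, 8 were tested, 1 (Mmp3) was called as higher in adult basal cells, and 0 were called as higher in fetal cells. By the flag of Feature Extraction, 76.4% to 83.3% of an array's probes were well above background. Slide 1 held adult basal replicates 1 and 3 and fetal replicate 1, and slide 2 the other 3 arrays.

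Mmp3, a stromelysin that cleaves basement membrane proteins and other proenzymes, was bright in adult basal cells and at background in fetal cells. Its probe (A_51_P255699) read 1.90, 3.53 and 2.25 in fetal samples and 9.85, 9.86 and 10.37 in adult samples. Every fetal array was thus far below every adult array, and 0 of 3 fetal arrays but 3 of 3 adult arrays were well above background. The means were 2.56 ± 0.86 (SD, n = 3) and 10.02 ± 0.30 (SD, n = 3), and the fitted log2 fold change was -7.47 (SE 0.40, 95% interval -8.41 to -6.52, limma, Holm-adjusted p = 0.0048). Since the fetal arrays were at background, the fetal level was also set to a floor. On each array this was the higher of its own value and the lowest value among probes well above background. The signal was then 76.2-fold higher in adult basal cells, a bound that holds for that floor alone. The lowest values were 3.26, 3.98 and 4.08 on fetal replicates 1, 2 and 3. The difference within slide 1 was -8.21 and within slide 2 it was -6.96. The size depends on how low signals are treated, and was -3.91 with the normexp background correction and -5.56 with 16 added to the signal before log2, both past the call threshold. The call was lost without the low-signal filter (adjusted p = 0.058) and without fetal replicate 3 (0.072) or the adult replicates 1 (0.068) or 3 (0.059), with a log2 fold change between -7.91 and -7.20 whichever array was left out.

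Mmp10, also a stromelysin, was not called. Its probe (A_51_P120830) read 6.10, 5.87 and 5.94 in fetal samples and 5.81, 5.75 and 5.62 in adult samples, all 6 well above background. The fetal arrays were all just above the adult arrays, by a mean of 0.24 (SE 0.11, 95% interval -0.02 to 0.50, limma, Holm-adjusted p = 1). The interval leaves room for no change and for up to 0.50 on the log2 scale.

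Mmp13, the collagenase at the start of the chromosome 9 row, was dim in both populations. Its probe (A_51_P184484) read 3.59, 3.73 and 1.76 in fetal samples and 5.83, 5.26 and 5.06 in adult samples. All adult arrays were above all fetal arrays, but only fetal replicate 1 among the fetal arrays was well above background, against 3 of 3 adult arrays. Both means, 3.03 ± 1.1 (SD, n = 3) and 5.39 ± 0.40 (SD, n = 3), lay under the low-signal boundary, so that the difference of -2.36 was left out of the test. When probes below the boundary were tested as well, its adjusted p was 1. An exact permutation test of 3 against 3 arrays cannot go below 0.1.

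Of the gelatinases, which digest denatured collagen and basement membrane collagen, Mmp2 was higher in adult basal cells by less than 2-fold and Mmp9 was near background in both. The Mmp2 probe (A_51_P341736) read 9.56, 9.45 and 9.73 in fetal samples and 10.60, 10.31 and 10.53 in adult samples. The populations did not overlap, and the log2 fold change was -0.90 (SE 0.13, 95% interval -1.20 to -0.61), a 1.87-fold difference with a Holm-adjusted p of 1 and a Benjamini-Hochberg-adjusted p of 0.00055 from limma. The Mmp9 probe (A_52_P507214), averaged over 10 spots on each array, read 3.26, 3.00 and 3.40 in fetal samples and 4.03, 2.57 and 3.73 in adult samples. These values overlapped, 1 of 3 arrays of each population was well above background, and the adult mean was the higher on slide 1 (difference -0.62) and the fetal mean on slide 2 (0.63). Both means lay under the low-signal boundary, so that Mmp9 was not tested, and without that filter its adjusted p was 1.

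Mmp14, the membrane-bound activator of Mmp2, and Mmp11, which furin cleaves inside the cell, both read slightly higher in adult basal cells. The Mmp14 probe (A_52_P304128) read 10.74, 10.44 and 10.67 in fetal samples and 11.18, 11.02 and 11.15 in adult samples. Its populations did not overlap, with a log2 fold change of -0.50 (SE 0.12, 95% interval -0.77 to -0.22, limma, Holm-adjusted p = 1, Benjamini-Hochberg-adjusted p = 0.0074). The brighter Mmp11 probe (A_55_P1989698) read 9.39, 9.25 and 9.69 in fetal samples and 9.94, 9.64 and 10.06 in adult samples. Fetal replicate 3 was above adult replicate 2, and the log2 fold change was -0.44 (SE 0.16, 95% interval -0.82 to -0.06). The second Mmp11 probe (A_66_P105075) gave -0.62 (SE 0.18) with no overlap. Neither Mmp11 probe nor the Mmp14 probe was called.

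Among the inhibitors, Timp2 was the one that differed by about the size of the call threshold. It is a secreted inhibitor that also carries the Mmp2 proenzyme to Mmp14 at the cell surface. Its brighter probe (A_52_P540219) read 13.77, 13.76 and 13.71 in fetal samples and 14.64, 14.63 and 15.03 in adult samples. The fetal arrays lay close together and all below the adult arrays, with a log2 fold change of -1.02 (SE 0.13, 95% interval -1.34 to -0.71), or 2.03-fold. The second Timp2 probe (A_65_P12392) gave -1.04 (SE 0.18). With Holm adjustment the adjusted p of both was 1, and with Benjamini-Hochberg adjustment of the same limma fit it was 4.0e-04 and 0.0020. At that more permissive adjustment 30.0% of all tested probes were called, and 2 of the 10 genes, Mmp3 and Timp2, both in the adult direction. Timp2 was between -1.09 and -0.89 on the log2 scale whichever array was left out.

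Timp1 and Timp3 overlapped between the populations. The probe of Timp1 (A_55_P1985850), a soluble inhibitor of most MMPs, read 10.26, 10.05 and 9.38 in fetal samples and 10.69, 9.89 and 10.23 in adult samples, with a log2 fold change of -0.37 (SE 0.28, 95% interval -1.03 to 0.28). The probe of Timp3 (A_51_P463765), an inhibitor that is bound to the matrix and also acts on ADAM enzymes, read 12.85, 13.01 and 12.68 in fetal samples and 12.45, 12.78 and 12.90 in adult samples, with a log2 fold change of 0.13 (SE 0.15, 95% interval -0.22 to 0.49). Neither was called, and the intervals still hold a log2 fold change of -1.03 for Timp1 and of 0.49 for Timp3.

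**Figure D2:**
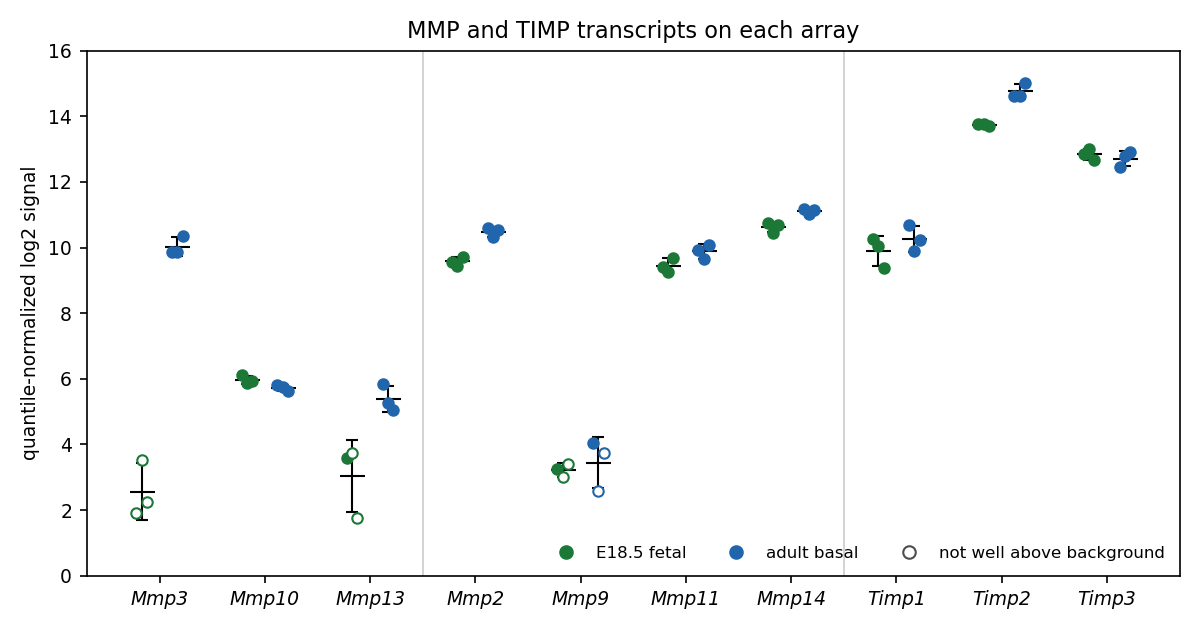
Quantile-normalized log2 signal (vertical axis) of the main probe of each MMP and TIMP gene (horizontal axis) on each array. Green points are E18.5 fetal and blue points adult basal arrays, open points are arrays on which the probe was not well above background, and bars are the mean ± SD of 3 arrays. Mmp3 lies at 1.90 to 3.53 in fetal samples and at 9.85 to 10.37 in adult samples, while Timp1 and Timp3 overlap.

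Over the 7 tested genes other than Mmp3, whose fetal value is only a limit, the log2 fold change ran from -1.02 to 0.24. The median of all 8 was -0.47, the same with Mmp3 at its bound, against -0.03 over all tested probes. The arrays of the populations did not overlap for 5 of the 8, of which Mmp2, Mmp3, Mmp14 and Timp2 were higher in adult basal cells and Mmp10 in fetal cells. Mmp3 and Mmp10 were tested only because the mean of the population in which they were higher passed the boundary (for Mmp10 5.97 in fetal and 5.73 in adult basal cells), and Mmp13, also without overlap and higher in adult basal cells, was left out by it, so that nothing is read from these counts or the median. Such separation was common, and held for 69.0% of all tested probes (35.0% higher in adult basal and 34.1% higher in fetal cells). Within each slide the difference had the same sign for all of the 10 genes but Mmp9.

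The rest of the family held the largest fold change in the fetal direction among the tested MMP and TIMP genes. Of 17 further MMP and TIMP genes 16 had a probe, 7 were tested, and 1, Mmp15, was called, against 11.1% of all tested probes. Mmp15 encodes a membrane-bound MMP of the same group as Mmp14. It read 8.67, 8.65 and 8.53 in fetal samples and 5.76, 4.74 and 5.30 in adult samples, all 6 well above background and with no overlap. Its adult mean of 5.27 was under the low-signal boundary, so that it was tested only through its fetal mean of 8.62. The log2 fold change was 3.35 (SE 0.24, limma, Holm-adjusted p = 0.034), or 10.2-fold, and it was 3.14 within slide 1 and 3.85 within slide 2. The size depends on how low signals are treated, and was 2.12 with the normexp background correction and 2.89 with 16 added to the signal, both past the call threshold. The call was lost under 8 of 18 alternatives, among them testing without the low-signal filter (adjusted p = 0.28). Also among them was leaving out fetal replicate 1 (adjusted p = 0.53), 2 (0.44) or 3 (0.35) or the third adult array (0.30). The log2 fold change was between 3.11 and 3.59 whichever array was left out.

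The other tested family genes were not called. Timp4, a further inhibitor, read 8.36, 8.52 and 8.87 in fetal samples and 7.62, 8.00 and 7.74 in adult samples, a log2 fold change of 0.80 (SE 0.17) with no overlap. Mmp19 read 5.37, 5.46 and 5.18 in fetal samples and 5.95, 5.85 and 6.51 in adult samples, a log2 fold change of -0.77 (SE 0.19). Mmp7, the matrilysin at the end of the chromosome 9 row, read 7.25, 7.45 and 7.71 in fetal samples and 7.61, 5.25 and 7.16 in adult samples. Adult replicate 2 alone was low for Mmp7, so that the log2 fold change of 0.80 had an SE of 0.56. Within slide 1, without that array, the Mmp7 difference was -0.13, and within slide 2 it was 2.33. Mmp17, Mmp23 and Mmp24, named after their values were seen, were between -0.30 and -0.13, and Mmp24 changed sign without adult basal replicate 2 (0.039). The remaining genes are listed to account for the family and were also outside the rule for named genes. Of the chromosome 9 row, Mmp1b, Mmp8 and Mmp20 were well above background on no array, as were Mmp16 and Mmp21 of other loci. Mmp1a, Mmp12, Mmp25 and Mmp28 were well above background on at least 1 array but under the low-signal boundary in both populations, and Mmp27 had no matched probe. The median over the 7 tested genes was -0.13. Mmp15 and Mmp19 were tested only through the population in which they were higher, so that nothing is read from this median.

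**Figure D3:**
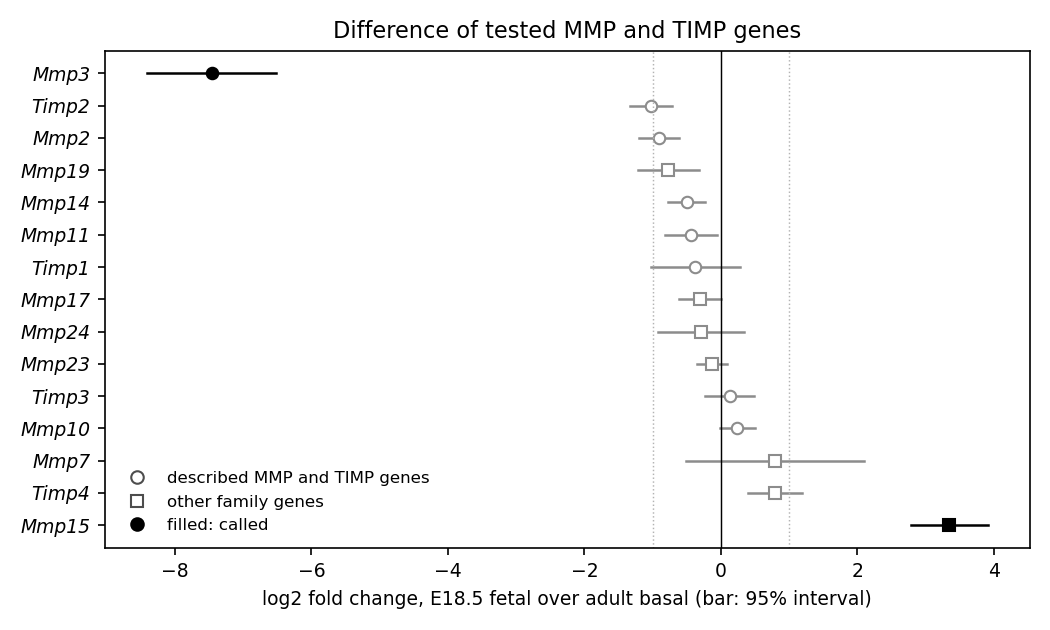
Log2 fold change (horizontal axis, E18.5 fetal over adult basal) of the tested MMP and TIMP genes, with the 95% interval of the limma fit. Circles are the genes described in full and squares the rest of the family, filled symbols are called genes, and dotted lines mark a 2-fold change. Mmp3, fitted at -7.47 from fetal values at background, and Mmp15 at 3.35 lie outside the range of all others, which is -1.02 to 0.80.

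MMP activity is also set by enzymes that remove the prodomain and by proteins that hold or clear MMPs at the cell surface. Of 15 such genes 14 were tested. Of these, 1 was called as higher in fetal (5.92% of all tested probes) and 3 as higher in adult basal cells (5.18%). Their median log2 fold change was -0.74. Lrp1, an endocytic receptor that takes up several MMPs and TIMPs, read 9.31, 9.12 and 9.34 in fetal samples and 13.26, 13.22 and 13.49 in adult samples. Its log2 fold change of -4.07 (SE 0.12, limma, Holm-adjusted p = 7e-05) was called under each of the 18 alternatives. Of the convertases of the furin family, which cleave prodomains, Pcsk5 and Pcsk6 differed in opposite directions. Pcsk5 read 7.02, 6.75 and 7.24 in fetal samples and 10.31, 9.93 and 10.21 in adult samples, a log2 fold change of -3.15 (SE 0.16, Holm-adjusted p = 0.0033). Pcsk6 read 11.83, 11.69 and 11.98 in fetal samples and 8.07, 7.65 and 6.99 in adult samples, a log2 fold change of 4.27 (SE 0.26, Holm-adjusted p = 0.011). Furin itself, named here after its values were seen, overlapped between the populations, with a log2 fold change of -0.03 (SE 0.16, 95% interval -0.41 to 0.35).

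Plat, the tissue plasminogen activator, which yields the MMP-activating protease plasmin, read 7.61, 7.22 and 7.68 in fetal samples and 10.22, 9.83 and 9.82 in adult samples. Its log2 fold change of -2.45 (SE 0.17, Holm-adjusted p = 0.027) lost the call whichever array was left out (adjusted p from 0.091 to 0.32). The call of Pcsk5 was lost without fetal replicate 1 (0.074), and that of Pcsk6 without adult basal replicate 2 or any 1 fetal array (adjusted p up to 0.20). With slide as a block the calls of Pcsk6 (0.066) and Plat (0.12) were lost as well, and those of Lrp1 and Pcsk5 (0.017) were kept. Bsg, an inducer of MMP synthesis, and Reck, a membrane-anchored MMP inhibitor, also named after their values were seen, had log2 fold changes of -1.62 (Holm-adjusted p = 0.069) and -0.58 (Holm-adjusted p = 1), and the second Reck probe gave -2.36 (Holm-adjusted p = 0.19). The probes of Cd44, likewise named after its values were seen, differed in sign. The brightest was at -0.57 and the other tested probes were at 0.34, 1.25 and -0.63, none of them called.

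The ADAM and ADAMTS enzymes are metalloproteinases related to MMPs, and Timp3 inhibits several of them. All 14 listed genes were tested, and 2 were called in each direction. Of all tested probes 5.92% were called as higher in fetal and 5.18% as higher in adult basal cells. The median log2 fold change of the list was -0.02. Higher in adult basal cells were Adamts5, an aggrecanase, at -2.92 (SE 0.18, limma, Holm-adjusted p = 0.011; -2.30 with 16 added to the signal) and Adamts2, which trims the ends of procollagens, at -1.96 (SE 0.11, Holm-adjusted p = 0.0082). Adamts5 read 4.47, 4.72 and 4.54 in fetal samples and 7.85, 7.44 and 7.19 in adult samples. Its fetal mean of 4.58 was under the low-signal boundary, so that it was tested only through its adult mean. Its second probe gave -5.37, also called, whereas the second Adamts2 probe gave -0.52 and was not. Higher in fetal cells were Adamts4, also an aggrecanase, at 1.96 (SE 0.14, Holm-adjusted p = 0.030) and Adamts18 at 1.62 (SE 0.12, Holm-adjusted p = 0.036), the latter named for its call alone. Adamts4 read 10.70, 10.59 and 10.71 in fetal samples and 8.65, 8.50 and 8.96 in adult samples. Adamts15 was at 3.20 (SE 0.26), with a Holm-adjusted p of 0.074, and with normexp it was called at 2.61. The probes of Adam12, named after its values were seen, disagreed in size. The brightest was at -0.41 and the other tested probes were at -4.18 and -1.15, none of them called. With slide as a block all 4 calls were lost (Adamts5 0.068, Adamts2 0.060, Adamts4 0.080 and Adamts18 0.22). They were also lost without the low-signal filter (adjusted p of 0.1, 0.061, 0.21 and 0.22 in the same order). With single arrays left out, Adamts5 kept its call only without adult basal replicate 1 or 3 (adjusted p otherwise up to 0.20), Adamts2 only without adult basal replicate 2 or fetal replicate 3 (up to 0.11), Adamts4 only without adult basal replicate 3 (up to 0.48), and Adamts18 lost its call in all 6 omissions (0.11 to 0.57).

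**Figure D4:**
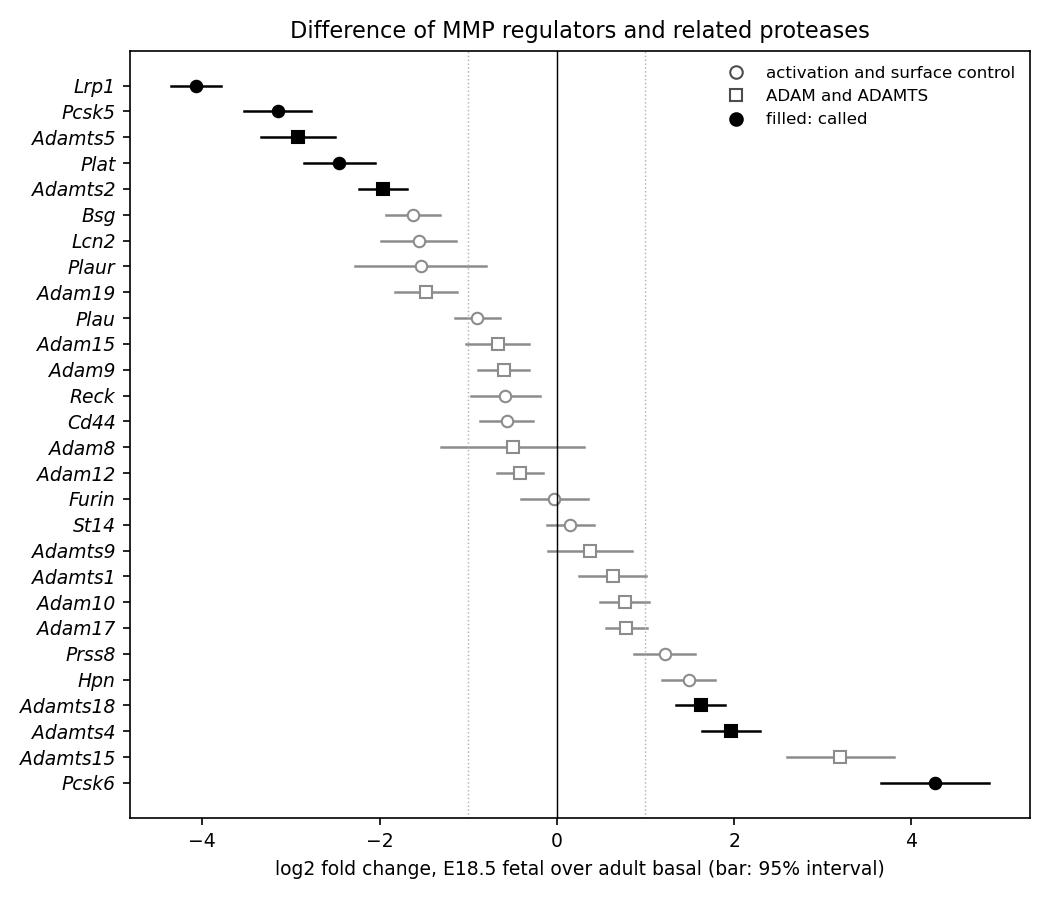
Log2 fold change (horizontal axis, E18.5 fetal over adult basal) of the tested regulators of MMP activity (circles) and ADAM and ADAMTS genes (squares), with the 95% interval of the limma fit. Filled symbols are called genes and dotted lines mark a 2-fold change. Lrp1 at -4.07 and Pcsk6 at 4.27 are the ends of the range.

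The AP-1 subunits, whose motif stands in the promoters shown above, and other immediate early genes were read beside Mmp3, Mmp10 and Mmp13. All 10 were tested. Of these, 1 was called as higher in fetal (5.92% of all tested probes) and 0 as higher in adult basal cells (5.18%). Their median log2 fold change was 1.37. Fosb read 12.86, 12.89 and 12.97 in fetal samples and 10.67, 10.36 and 10.60 in adult samples, a log2 fold change of 2.36 (SE 0.12, limma, Holm-adjusted p = 0.0025), and lost the call without fetal replicate 1 or 2 (adjusted p up to 0.056). Egr1 (2.5, Holm-adjusted p = 0.055), Fos (1.99, 0.058) and Ier2 (1.88, 0.14) did not pass. With Benjamini-Hochberg adjustment 7 of the 10 were called, all in the fetal direction, as were 16% of all tested probes. These genes are also known to respond to cell dissociation, which differed between the populations, and its part in their values was not tested. The arrays of the populations did not overlap for any of the 10, as for 69.0% of all tested probes. Of the 10, 9 were higher in fetal cells (34.1% of all tested probes) and Fosl2, named after its values were seen, was higher in adult basal cells (-0.88). In the same fetal arrays Mmp3 and Mmp13 read lower and Mmp10 read 0.24 higher than in the adult arrays.

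MMPs and TIMPs are also made by stromal and blood cells, so markers of those cells were read in the same arrays. Both sorts took EpCAM-positive cells, a gate meant to leave out stromal cells, and gated out CD45 and CD31. In bulk samples, fewer cells of a type and less RNA per cell cannot be told apart. Of 10 fibroblast markers 9 were tested and 2 were called, both higher in adult basal cells, as were 5.18% of all tested probes. They were Pdgfrb at -4.34 (SE 0.17, limma, Holm-adjusted p = 0.00056) and Dcn, whose probe gave the most signal of the list, at -3.78 (SE 0.18, Holm-adjusted p = 0.0023). Pdgfrb had a fetal mean of 4.97, under the low-signal boundary, and with normexp it was at -2.93, still called. The Dcn call was lost without fetal replicate 1 (0.053). Thy1 (-1.62) and Col6a3 (-1.36) were called with Benjamini-Hochberg but not with Holm adjustment, and the median was -1.05. Of genes named after their values were seen, Dpt was well above background on no fetal array and on 3 of 3 adult arrays, and Fbln1 was higher in fetal cells, at 1.03 (SE 0.17, Benjamini-Hochberg-adjusted p = 0.0013), with no overlap. The summed linear signal of the list came to 5670, 5730 and 6910 in the fetal and 15100, 18900 and 21600 in the adult samples, without overlap. It moved in the same direction as Mmp3, Mmp2, Mmp14 and Timp2, and its part in their values was not tested.

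Of 9 tested leukocyte markers 0 were called with Holm and 2 with Benjamini-Hochberg adjustment, both higher in adult basal cells, as were 14.0% of all tested probes. The 2 were Tyrobp (-2.80, and -1.81 with normexp) and Lyz2 (-1.76). With fetal means of 5.40 and 4.85, both were tested only through their adult means. Laptm5 at -0.97 (-0.40 without adult basal replicate 3) and Adgre1 at -0.42 were not called. The second Adgre1 probe, named after its value was seen, was at -4.66 and not called with Holm adjustment. The summed signal of the leukocyte list, to which the Itgam probe gave the most, was 35000, 29400 and 26800 in fetal samples and 25100, 34500 and 28500 in adult samples, with overlap, and the median of the list was -0.31. Of 6 tested endothelium markers 0 were called with Holm and 4 with Benjamini-Hochberg adjustment, all higher in adult basal cells, against the same 14.0%. They were Cdh5 (-2.70, or -2.07 with 16 added to the signal), Emcn (-1.79), Vwf (-1.56) and Cldn5 (-1.40). Cdh5 was between -3.44 and -2.10 whichever array was left out. Cdh5 and Emcn, with fetal means of 4.83 and 4.19, were tested only through their adult means. Nothing is therefore read from the count or the median of -1.48. Tek and Tie1, named after their values were seen, were well above background on no fetal array and on 3 and 2 adult arrays, and their arrays did not overlap. The summed signal of all 8, most of it from the Kdr probe, overlapped although 4 of the 6 tested genes did not, and was 12400, 10900 and 12800 in fetal samples and 13200, 14100 and 11700 in adult samples. Ptprc (CD45) and Pecam1 (CD31), named after their values were seen, whose products were used to remove cells in both sorts, overlapped between the populations at -0.31 and -0.14. Adult basal replicate 3 had the highest Tyrobp (9.64 against 7.82 and 7.16) and Lyz2 (7.95 against 6.26 and 5.61) of the adult arrays. It also had the highest Mmp3, Mmp11, Timp2 and Timp3, whereas Mmp2, Mmp9, Mmp10, Mmp13, Mmp14 and Timp1 were highest on adult basal replicate 1. The part of these cells in the values of the MMP and TIMP genes was not tested. Without adult basal replicate 3 the log2 fold changes were -7.29 for Mmp3, -0.89 for Timp2, -2.08 for Tyrobp and -1.08 for Lyz2.

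Mammary lineage markers differed between the populations in part. The arrays did not overlap for 8 of 10 basal markers, all higher in adult basal cells, and among 10 luminal markers for 6 higher in fetal and 3 higher in adult basal cells, as for 69.0% of all tested probes. Of the basal markers 6 were called, all higher in adult basal cells (5.18% of all tested probes), with a median log2 fold change of -3.93, and smooth muscle Myh11 (-8.63), Cnn1 (-6.01), Mylk (-4.50) and Acta2 (-4.07) were the furthest apart. The Trp63 probes, named after their values were seen, disagreed, with the brighter probe at -0.08 and the second called at -3.07. Krt14 (-1.20) and the luminal gene Gata3 (0.15), also named after their values were seen, overlapped between the populations. Of the luminal markers 4 were called, all higher in fetal cells (5.92%), with Elf5 at 7.55, Foxa1 at 6.46 and Kit at 4.0 (with normexp Elf5 was at 6.09, Foxa1 at 5.70 and Myh11 at -7.46), while Krt19 was at -1.22 and not called. Esr1, named after its values were seen, was at -3.58 (limma, Holm-adjusted p = 0.25, Benjamini-Hochberg-adjusted p = 8.6e-05). It was well above background on 1 of 3 fetal and 3 of 3 adult arrays, so that this size and p rest in part on background values. Elf5 (adult mean 5.10) was tested only through its fetal mean. So was Csn3 (adult mean 1.96), also called and named after its values were seen, which was well above background on no adult array. Myh11 (fetal mean 5.72) and Esr1 (3.35) were tested only through their adult means. Nothing is therefore read from the counts or medians of these lists. The Foxa1 call was lost without adult basal replicate 3 or any 1 fetal array (adjusted p up to 0.14), without the low-signal filter (0.082) and with trend and robust estimation (0.10). The second Prlr probe, named after its values were seen, was called at 1.85, where the brighter was at -0.35. Differences in lineage makeup and in stage cannot be told apart for the MMP and TIMP genes.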

How the data were processed

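The authors deposited, for each of the 6 arrays, spot intensities from Agilent Feature Extraction 11.0.1.1, in which background had been subtracted within the array, and a table of log2 values that they quantile normalized in GeneSpring. The 6 columns of that table had a median of 7.1 each, and followed their own arrays with r between 0.971 and 0.996. The labels name the Low Input Quick Amp labelling kit and the methods a whole-transcript version of it. Here log2 of the processed signal was used. Control spots and spots marked as outliers (104 to 326 of 59305 on an array) were left out, spots of a probe averaged, and arrays quantile normalized. No processed signal was saturated. Probe accessions were matched to symbols of a RefSeq table (GRCm38.p6), 27229 of 55681 probes. Probes in the lowest of 3 k-means clusters (100 starts, seed 1) in both populations were removed, and the rest went into limma (3.58.1, R 4.3.3; lmFit, then eBayes). Groups and replicate numbers came from the labels. Replicates are biological by the labels, with animals per sample not given in the sources used here. The number of arrays limits the precision.

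A gene was read on its brightest tested probe. Members and gene lists were chosen with earlier results of these data known, and lists are described by counts, with no set test. Named were the members, called family genes and up to 4 genes a list with the largest fold change among those well above background on all arrays. Genes of like pattern were to be named for members both called and well above background on all arrays, and there was none. Genes outside the rule are marked where they are named. Alternatives covered normalization, background correction (normexp on median spot and local background intensity, offset 50), filters, adjustment, variance model, an offset of 16, slide, replicate block, gene means and the omission of each array. The scripts were tested on simulated data. Tables and plots were made with Python 3.11.15, pandas 2.3.3, numpy 2.4.6 and matplotlib 3.10.9.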

Additional observations from a re-analysis of the deposited data

How the results depend on the processing

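The count of 2269 called probes was 1181 without the low-signal filter, 6130 with Benjamini-Hochberg adjustment and 1303 with the replicate block. Leaving out each array in turn gave 948 to 1949, and the count fell by over 1.5 times without fetal replicate 1 (948), 2 (974) or 3 (1055) or adult basal replicate 1 (1470) or 3 (1327). Of the MMP and TIMP genes, 0 were called without the low-signal filter, 2 (both higher in adult basal cells) with Benjamini-Hochberg adjustment, and 0 to 1 with each array left out. No fetal call among them appeared under any alternative run. With slide as a block Mmp3 was at -7.59 (Holm-adjusted p = 0.020). A gene that was not called cannot lose a call, and some alternatives leave the fold change as fitted. The counts that follow are therefore not a measure of stability. Of 142 values of these genes under alternatives 137 kept their direction and side of the threshold, 4 of the 18 of Mmp3 lost the call and 1 of Timp2 gained it. Of 719 values of the other named genes 618 kept both, 70 lost and 30 gained a call, and 1 changed sign: Mmp24, not called at -0.29, was at 0.039 without adult basal replicate 2 (range -0.50 to 0.039 with each array left out). Same-numbered arrays did not deviate together (r = -0.032, 0.093 and 0.049), so the numbers were not taken as pairs. With the replicate block Mmp3 kept its call (adjusted p = 0.017) and Mmp15 (0.077), Pcsk6 (0.051), Plat (0.064), Adamts5 (0.073), Adamts2 (0.11), Adamts4 (0.12) and Adamts18 (0.49) did not. Probes near background, such as Mmp9 and Mmp13, are limited by signal over background, and the cause of these changes was not tested.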
